A study of Mus musculus with 2 samples.

Results

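The genes examined here were 40 genes of the core autophagy machinery, chosen by symbol as all probe sets whose platform annotation gave only one of these genes, under its current or an older name. Of the 40, 39 were among the 18193 genes named on the array, and they held 93 of the 45101 probe sets of the Affymetrix Mouse Genome 430 2.0 array. RNA came from Neuro2a cells, a mouse neuroblastoma line, after 24 h with a control siRNA (siControl) or with siRNA against Cpeb1 mRNA (siCPEB1), both delivered with a lipid reagent into the same line with no other genetic change in the labels. CPEB1 is an RNA-binding protein that recognizes an element in the untranslated region that follows the coding sequence of mRNAs and controls their polyadenylation and translation. Each condition was measured on 1 array, so no difference below has a replicate, and no test or p-value could be made: every value compares these 2 arrays.

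Autophagy is the pathway by which a cell wraps part of its cytoplasm in a membrane and delivers it to the lysosome for breakdown. The ULK kinase complex starts the process, the class III PI3-kinase complex marks the forming membrane with the lipid PI3P, and lipid-transfer and PI3P-binding proteins extend it. A set of ubiquitin-like conjugation enzymes then attaches the ATG8 proteins (the LC3 and GABARAP families) to the membrane, where they bind receptors that bring the cargo. Neurons, which do not divide, are known to depend on this pathway to clear aggregated protein and worn organelles.

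Values are MAS5 signals, the brightness of a probe set on a linear scale as deposited, and log2 ratios are those of siCPEB1 over siControl after the 75th percentile of the arrays was made equal. This scaling moved every log2 ratio by -0.04. Signals of different probe sets depend on their probes, so they were compared between arrays and not between genes. The array medians were 21.05 in siControl and 21.6 in siCPEB1. To be kept, a probe set had to reach the median of 1 array while being no lower than the 25th percentile of the second. Of the 93 member probe sets, 72 passed, and 21 did not. Optn, which encodes the receptor optineurin, had no probe set listed under its name and was not analysed here. The single probe set of Atg2a, which encodes a lipid-transfer protein, read 2.81 in siControl and 15.7 in siCPEB1. Both signals lay below the array median, so no fold was taken. For each of the remaining 38 genes, 1 probe set was used (not of the _x_at or _s_at kind, which can bind related transcripts, where another passed, and otherwise the brightest). All 38 of these probe sets were at or above the array median in both arrays.

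The targeted gene read as labelled: Cpeb1 was 302 in siControl and 38.5 in siCPEB1, 8.08-fold lower. With 1 array per condition, only spreads between probe sets of these arrays can be given, and these hold no variation between cultures. Probe sets of the same gene differed in log2 ratio with a pooled SD of 0.37 over the 5531 genes with more than 1 passing probe set, and of 0.37 over the 22 such members. This SD was 0.58 in the dimmest 25% of the signals and 0.17 in the brightest 25%. The 18 hybridization control probe sets averaged -0.17 on the log2 ratio scale (SD 0.075), and the 24 poly-A control probe sets averaged -0.22 (SD 0.185). Of 14 marker genes of sympathetic neuroblastoma cells, 12 passed (Th and Nefl were too dim), the summed signal of the list (1 probe set per gene on the array, with no filter, here and for the lists after it) was 12981 in siControl and 17210 in siCPEB1, and Isl1, Gata3 and Phox2a were above 2-fold higher in siCPEB1 while Mapt was above 2-fold lower. Markers of other cells were few: 3 of 8 fibroblast genes passed, 2 of 8 haematopoietic, 1 of 6 glial and 1 of 5 endothelial. The summed signal of the fibroblast list was 194 in siControl and 421 in siCPEB1, with its passing genes on both sides: Col1a2, a collagen gene, read 42.3 and 309 (2.83), and Pdgfrb, a growth factor receptor, read 97.1 and 26.9 (-1.89). Over the haematopoietic list the sums were 95.3 and 114, over the glial list 70.7 and 120, and over the endothelial list 74.9 and 124. The part of these shifts in the results below was not tested, and in bulk RNA a change in the number of cells of a kind cannot be told apart from a change of RNA in each cell.

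As a group, the autophagy genes were shifted a little upward in siCPEB1, and few of them moved far. Ulk1, the initiating kinase, was the 1 gene past 2-fold higher, where 4.58% of all 11554 genes were, and no member was past 2-fold lower, where 3.93% of all genes were. Past 1.5-fold, 7 of the 38 genes were higher (Ulk1, Atg16l1, Atg14, Calcoco1, Atg10, Atg101 and Gabarapl1), beside 11.9% of all genes, and 1 was lower (Sqstm1), beside 12.1% of all genes. The other 30 lay within 1.5-fold. Over the 38 genes the median was 0.18 on the log2 scale, against 0.01 over all genes, and 25 of them (65.8%) were above 0, against 50.4% of all genes. Their log2 ratios ran from -0.63 to 1.11 with an SD of 0.45, whereas all genes had an SD of 0.60. With no filter, the median over the 39 genes on the array was 0.23. With the mean of each gene's passing probe sets in place of 1 probe set, it was 0.11, and 57.9% of the 38 genes were above 0, against 50.2% of all genes.

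**Figure D1:**
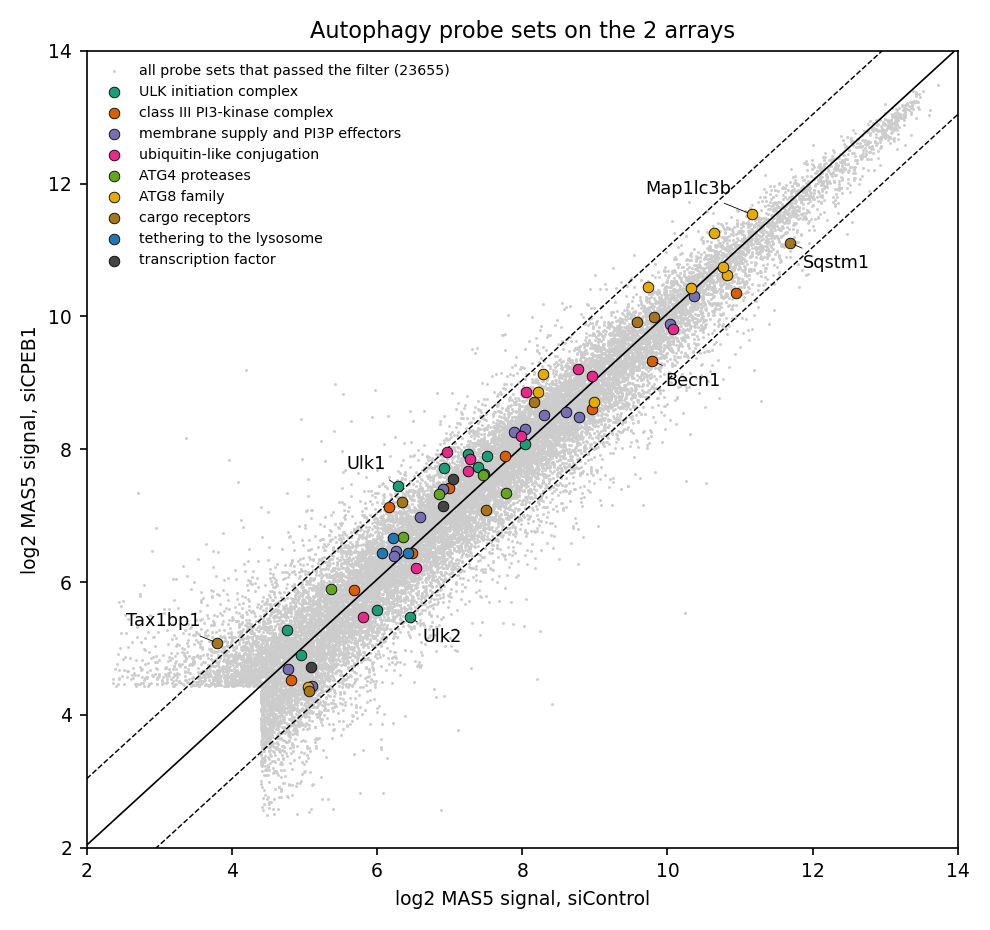
Signals of the 72 autophagy probe sets that passed the filter (coloured by role) over all 23655 probe sets that passed (grey), as log2 MAS5 signal in siControl on the x axis and in siCPEB1 on the y axis; the solid line marks no difference after scaling and the dashed lines mark 2-fold. Between the dashed lines lie 69 of the 72 member points, with Ulk1 and a dim Tax1bp1 probe set above them and 1 Ulk2 probe set just past the lower line.

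At the level of single probe sets, 2 of the 72 were past 2-fold higher and 1 was past 2-fold lower, beside 4.1% and 4.54% of all 23655 probe sets. The median log2 ratio was 0.16 over the member probe sets and -0.02 over all. Of 22 genes with more than 1 passing probe set, 14 had the same sign at each, 9 above 0 and 5 below. In 8 genes the signs differed, and in 7 of these (Ulk2, Becn1, Atg2b, Wipi1, Gabarapl2, Nbr1 and Foxo3) the probe sets were more than 0.5 apart on the log2 scale. The remaining 16 genes rest on 1 probe set.

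**Figure D2:**
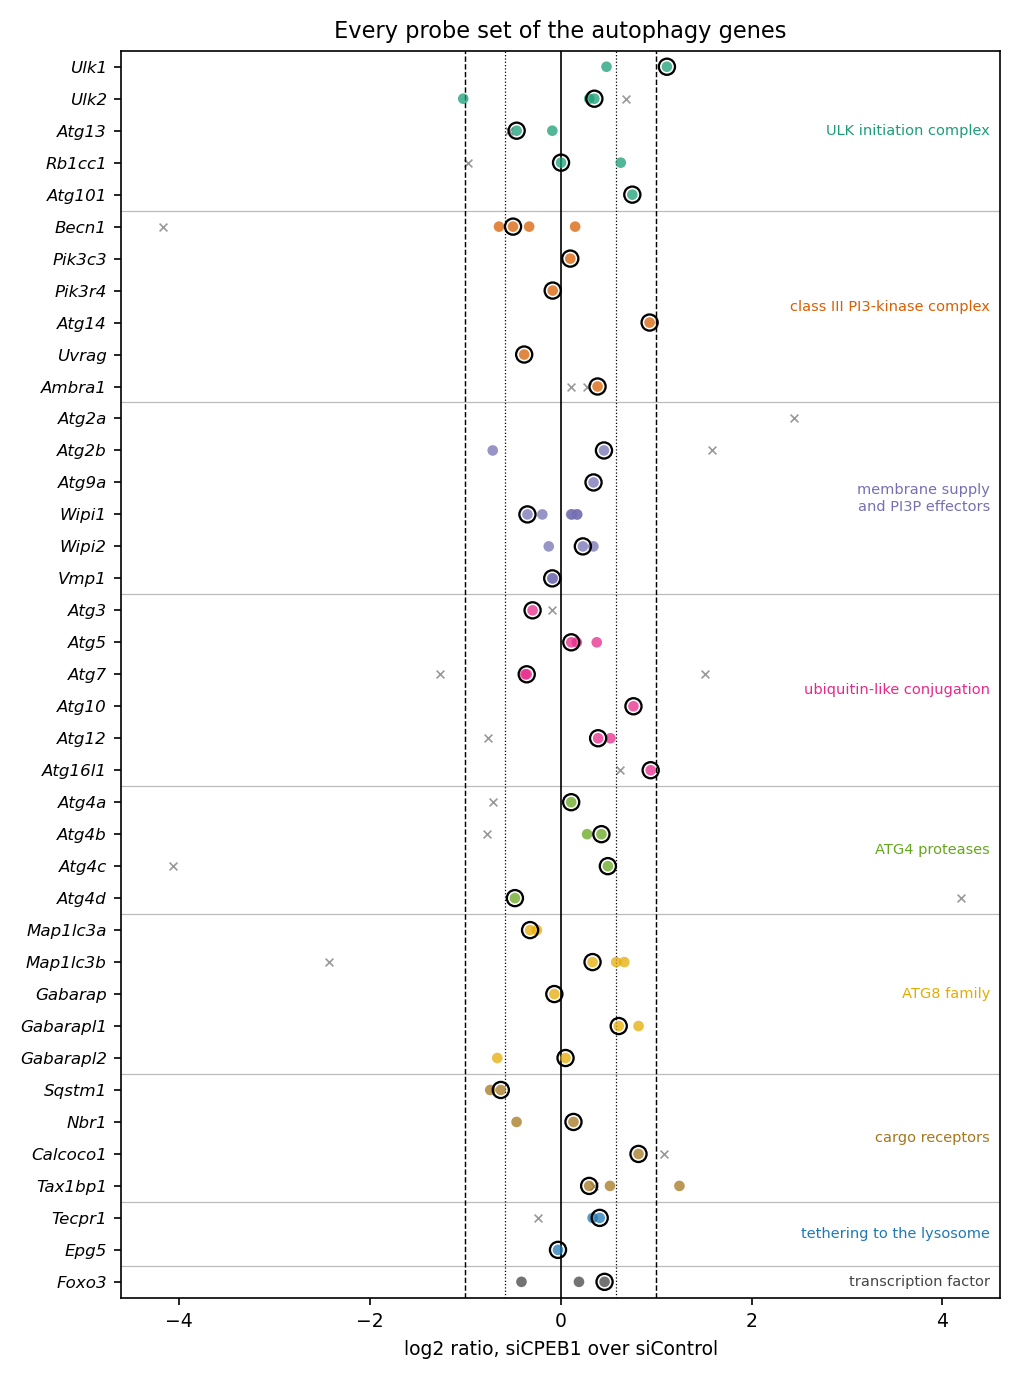
Log2 ratio of siCPEB1 over siControl (x axis) for all 93 probe sets of the 39 autophagy genes on the array, grouped by role. Filled points passed the filter, ringed points are those used for the gene, and grey crosses are probe sets too dim for the filter; dotted lines mark 1.5-fold and dashed lines 2-fold. The ringed points range from -0.63 (Sqstm1) to 1.11 (Ulk1), and the widest ratios belong to the grey crosses.

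In the ULK initiation complex, 4 of the 5 genes were above 0, with a median log2 ratio of 0.35. Ulk1, the kinase itself, read 78.4 in siControl and 175 in siCPEB1 (log2 ratio 1.11). Its second, dimmer probe set read 27.1 and 38.9 (0.48), so both were higher in siCPEB1, but only the brighter was past 2-fold. Atg101, a stabilizing subunit of the complex, read 122 and 210 on its one probe set (0.75). The kinase Ulk2, a close relative of Ulk1, had probe sets on both sides of 0. Its brighter probe sets read 182 and 240 (0.35), and 168 and 213 (0.30). The third read 87.5 and 44.3 (-1.02), which made it the 1 member probe set past 2-fold lower. Rb1cc1, which encodes the scaffold FIP200, read 262 and 271 on the probe set used (0.0046) and 153 and 243 on the other (0.63). Atg13, the regulatory subunit that mTORC1 phosphorylates, was on the lower side at 63.8 and 47.7 (-0.46), while its dimmer probe set read 30.9 and 29.9 (-0.09).

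The class III PI3-kinase complex was split, with 3 of 6 genes above 0 and a median of 0.01. Its largest difference was in Atg14, the subunit that directs the kinase to the site where autophagosomes form, which read 71.6 in siControl and 140 in siCPEB1 (0.93). Uvrag, which takes the place of Atg14 in the complex that acts on endosomes, lay on the other side with 496 and 392 (-0.38). Becn1, the shared regulatory subunit Beclin 1, read 887 and 646 on the probe set used (-0.50). Its brightest probe set, of the kind that can bind related transcripts, read 1980 and 1302 (-0.65). Its dim ones disagreed in sign, at 51.6 and 59.0 (0.15), and at 28.1 and 23.0 (-0.33). The lower reading of Becn1 thus rests on its bright probe sets. The catalytic subunit Pik3c3 read 217 and 239 (0.10), and its membrane anchor Pik3r4 read 89.0 and 86.5 (-0.08). Ambra1, which links Beclin 1 to regulation of the complex, read 127 and 171 (0.39).

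Among the genes of membrane supply and PI3P effectors, none of the 5 measured was past 1.5-fold, and 3 were above 0 (median 0.23). On the probe sets used, Atg9a, Wipi2 and Vmp1 had log2 ratios between -0.09 and 0.35. The Atg9a protein carries the vesicles that seed the membrane. Wipi2 encodes a PI3P-binding protein that recruits the conjugation machinery, and Vmp1 a lipid scramblase of the endoplasmic reticulum. Other probe sets of Wipi2 differed in sign, at 0.34 and, on a dim one, at -0.12. Atg2b, a lipid-transfer protein, had a bright probe set at 120 and 169 (0.45) and a dim one at 34.3 and 21.6, at least 1.63-fold lower with its siCPEB1 signal, which was under the array median, set at that median. Wipi1, a PI3P-binding relative of Wipi2, had 6 passing probe sets. The one used read 442 and 357 (-0.35), the brightest 1052 and 947 (-0.19), and the other 4 lay between 0.11 and 0.17. Neither gene has a settled direction on these arrays.

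In the ubiquitin-like conjugation system, both genes past 1.5-fold higher belong to the branch that joins ATG12 to ATG5. Most of the 6 genes in this group belong to that branch, and 11.9% of all genes were past 1.5-fold higher. Atg10, the E2-like enzyme of that branch, read 267 in siControl and 465 in siCPEB1 (0.76). Atg16l1, which binds the ATG12–ATG5 conjugate and places it on the membrane, read 125 and 248 (0.94). Atg12 itself read 437 and 590 (0.39), and its second probe set 156 and 230 (0.52). Atg5, its conjugation partner, had 3 probe sets on the same side, at 497 and 553 (0.11), 253 and 293 (0.17), and 153 and 205 (0.38). The E1-like enzyme Atg7, which serves both branches, was on the lower side on both of its passing probe sets, at 92.7 and 74.5 (-0.35) and 55.9 and 44.5 (-0.37). Atg3, the E2-like enzyme that loads the ATG8 proteins, read 1076 and 903 (-0.29). The group as a whole had 4 of 6 genes above 0 and a median of 0.25. The ATG4 proteases, which trim ATG8 proteins before conjugation and release them afterwards, had 3 of 4 genes above 0 with a median of 0.27. Atg4a, Atg4b and Atg4c lay between 0.11 and 0.50 and Atg4d at -0.48, so none was past 1.5-fold.

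The ATG8 family had genes on both sides of 0. Gabarapl1 was the highest, with 297 in siControl and 466 in siCPEB1 (0.61) on the probe set used and 311 and 563 (0.82) on the other. Map1lc3b, the LC3 form most often followed as a marker of autophagosomes, read 2291 and 2971 (0.33), 1597 and 2459 (0.58), and 850 and 1389 (0.67). All 3 of its bright probe sets were thus higher in siCPEB1. Map1lc3a, the other LC3 gene on the list, was lower on both of its probe sets, at 510 and 420 (-0.32) and 1817 and 1574 (-0.25). Gabarap read 1739 and 1708 (-0.07). Gabarapl2 read 1289 and 1373 on its bright probe set (0.05) and 33.0 and 21.5 on a dim one, whose siCPEB1 signal was also under the array median (at least 1.57-fold lower). The median of the 5 genes was 0.05.

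On the probe sets used, the cargo receptors held the lowest gene of the machinery, Sqstm1, although with the brightest passing probe set of each gene Becn1 was lower (-0.65 against -0.63). Sqstm1 encodes p62, which carries ubiquitinated cargo and is itself degraded by autophagy. Its bright probe set read 3308 in siControl and 2204 in siCPEB1 (-0.63). Its dim one read 33.3 and 20.6, where the siCPEB1 signal was below the array median, and with that signal set at the median it was at least 1.58-fold lower. Calcoco1, a receptor for parts of the endoplasmic reticulum, lay on the other side, with 81.2 and 147 (0.82). Nbr1, a receptor related to p62, read 903 and 1019 (0.13) on its bright probe set and 181 and 135 (-0.46) on the other. Tax1bp1, another ubiquitin-binding receptor, was higher on all of its passing probe sets, at 764 and 967 (0.30), 286 and 421 (0.52), and 13.9 and 33.9 (1.24). The last of these is the second member probe set past 2-fold higher, but its siControl signal was below the array median, and with that signal set at the median it was at least 1.57-fold higher. Tecpr1 and Epg5, which tether autophagosomes to lysosomes, had log2 ratios of 0.41 and -0.03. Foxo3, a transcription factor of autophagy genes, read 133 and 188 on the probe set used (0.46), 120 and 142 on the next (0.19), and 33.9 and 26.3 on the dimmest (-0.41).

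**Figure D3:**
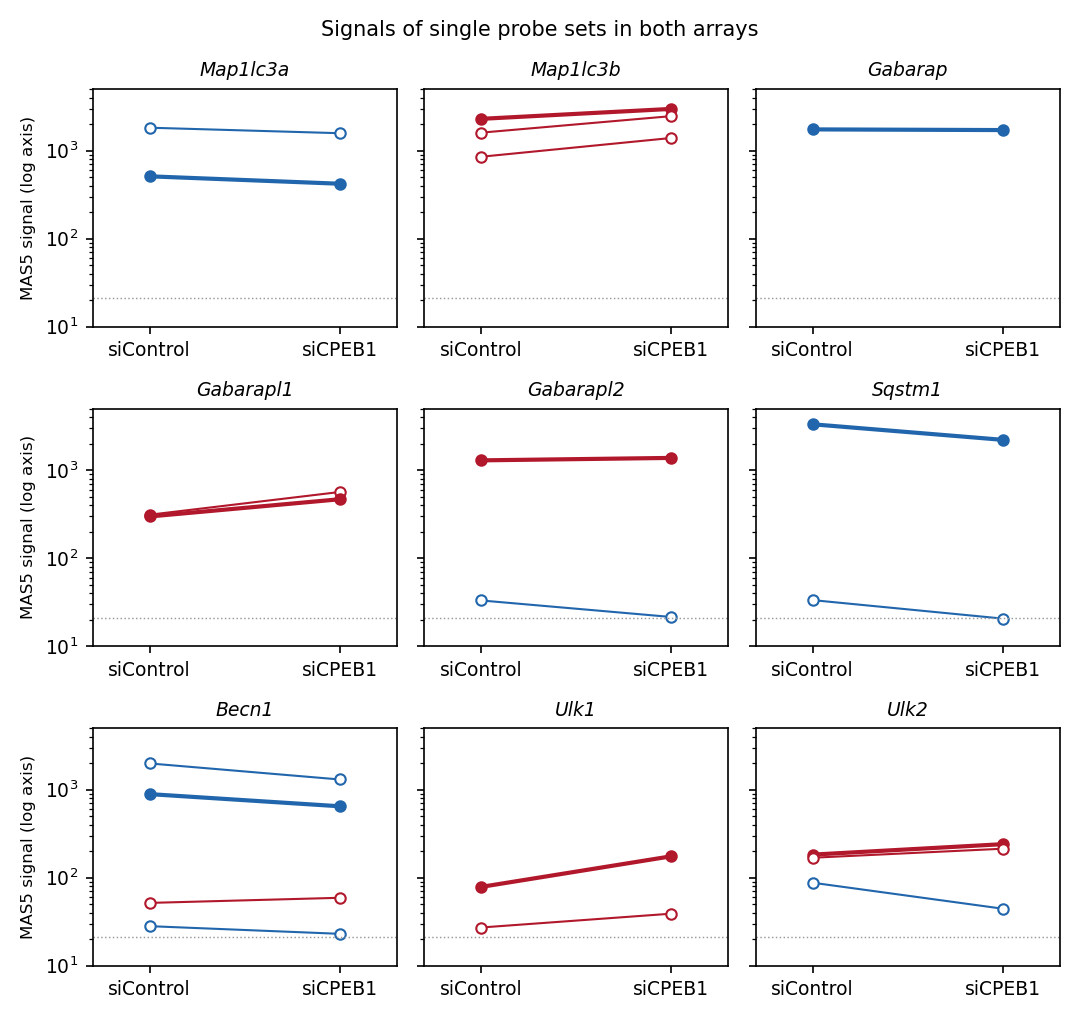
MAS5 signal (log axis) in siControl and siCPEB1 for every probe set that passed the filter of 9 autophagy genes; each line is 1 probe set, thick with filled points for the one used, red where the log2 ratio was above 0 and blue where it was below, and the dotted line is the siControl array median. The 3 lines of Map1lc3b all slope upward and both of Sqstm1 downward, while Becn1, Gabarapl2 and Ulk2 hold lines of both directions.

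Lists of genes that work with the core machinery were read in the same way, beside the same shares of all genes. Of 22 other autophagy genes, 21 passed, 2 were past 2-fold higher and 1 lower, and the median log2 ratio was 0.30 with 14 above 0. Trp53inp2, which encodes a nuclear cofactor that moves to the autophagosome, read 241 and 672 (1.44). Wdr45, a PI3P-binding relative of the WIPI genes, read 85.5 and 176 (1.002), only just past 2-fold. Its other passing probe set read 66.3 and 128 (0.91) and was not past 2-fold. Stbd1, a receptor for glycogen, read 868 and 313 (-1.51) and was the lowest of that list. Of 12 genes for fusion with the lysosome, all 12 passed and none was past 2-fold on the probe set used, with a median of 0.07. In this list Snap29, a SNARE protein of the fusion step, was lower on each of its 3 probe sets, at 83.6 and 48.7 (-0.82), 75.1 and 30.7 (-1.33), and 95.9 and 27.9 (-1.82). The probe set rule had taken the one with the smallest difference, and Snap29 was singled out after its values were seen.

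The lists of upstream genes had medians of 0.04 and -0.23. Their counts past 2-fold stand beside 4.58% of all genes higher and 3.93% lower. Of 35 genes of mTORC1 and AMPK signaling, which report on nutrients and energy to the ULK complex, 33 passed, none was past 2-fold higher and 1 was lower. That gene was Ddit4, an inhibitor of mTORC1 induced by stress, at 2287 in siControl and 901 in siCPEB1 (-1.38). Of 13 transcription factors of autophagy and stress, 11 passed, none was past 2-fold higher and 2 were lower. Cebpb, a transcription factor of the stress and inflammatory response, read 2240 and 802 (-1.52). Ddit3, which encodes CHOP of the integrated stress response, read 2213 and 888 (-1.36). Tfeb and Tfe3, the factors known for driving autophagy and lysosome genes, read 74.1 and 66.1 (-0.21), and 225 and 198 (-0.23). Together with Atf4 they were named after their values were seen. Atf4, the main factor of the integrated stress response, read 5387 and 3904 (-0.50).

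**Figure D4:**
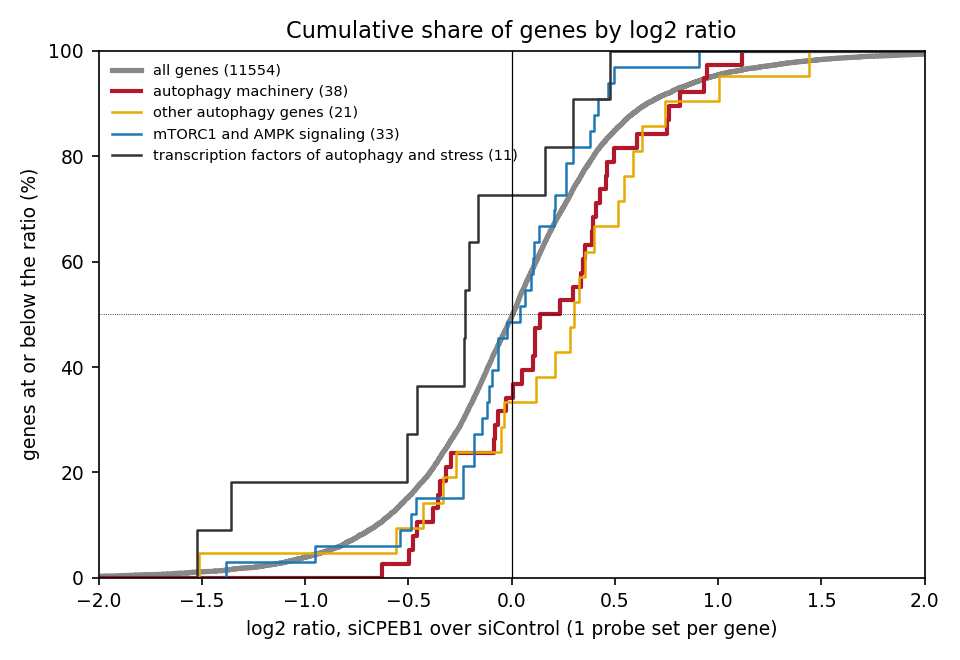
Cumulative share of genes (y axis, %) at or below each log2 ratio of siCPEB1 over siControl (x axis, 1 probe set per gene) for all 11554 genes, the 38 autophagy genes and 3 related lists, with the number of genes in parentheses; ratios past the ends of the axis are not shown. The curves of the autophagy machinery (median 0.18) and of the other autophagy genes (0.30) lie to the right of that of all genes (0.01) at the middle, and that of the transcription factors (-0.23) to the left.

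Promoters of the members were searched for the letters that such factors are known to bind, in RefSeq sequence of mouse build GRCm38.p6 from 250 bases before to 50 bases after each start. Sequence was at hand for 33 of the 40 genes, with 39 promoters. The E-box CACGTG, which reads the same on both strands and is the core of the sites bound by TFEB and TFE3, was in 4 of the 39 (10.3%), beside 7.15% of 32851 promoters of all genes. The FOXO letters GTAAACA and the ATF4 composite letters TGATGNAA, searched on both strands, were in 0 of the 39, beside 3.65% and 3.97% of all. The windows of 30 bases with an E-box are shown because they are the only members' promoters that held any of these letters, with the E-box in capitals and 5′ to 3′ on the strand of the gene.
Atg7, chr6:114670952-114670981, plus strand: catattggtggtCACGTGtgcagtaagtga
Atg5, chr10:44268313-44268342, plus strand: cggagcgcttgcCACGTGgtcttggtgacg
Atg14, chr14:47568418-47568447, minus strand: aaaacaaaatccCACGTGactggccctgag
Atg3, chr16:45158723-45158752, plus strand: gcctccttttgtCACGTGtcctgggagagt
Atg3, chr16:45158746-45158775, plus strand: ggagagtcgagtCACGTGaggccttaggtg
The first base of the E-box lay at position -132 from the start in Atg7, -14 in Atg5, -1 in Atg14, and -94 and -71 in Atg3, where the windows overlap. The Atg7 window lies inside the gene, listed as chr6:114643127-114860604, so that start is an internal one and not the first of the gene. In Atg5, Atg14 and Atg3 the windows lie at or close to the listed start of the gene. These 4 genes did not share a direction. Atg14 had a log2 ratio of 0.93, Atg5 of 0.11, Atg3 of -0.29 and Atg7 of -0.35. A match of letters is a description of the sequence and not a bound site.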

How the data were processed

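Total RNA (100 ng per array) from 1 siControl and 1 siCPEB1 culture was labelled by the authors with a 3′ in vitro transcription kit and hybridized to 2 arrays. The deposited values are MAS5 signals, an intensity on a linear scale, which the authors computed in Affymetrix Expression Console (submitters' processing notes, no version given). MAS5 removes local background and applies 1 scaling factor to an array, and which target it was scaled to is not stated by any source used here. Detection calls were not used here.

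From these, log2 ratios were taken after dividing each array by its 75th percentile, with Python 3.11.15, numpy 2.4.6 and pandas 2.3.3. Of the probe sets, 34945 had 1 gene symbol, 932 several (not used for naming), 9160 none listed and 64 were controls. Symbols came from the platform annotation, updated to RefSeq names. Dim signals compress or inflate ratios, hence the signal filter and the bound at the array median. The members and gene lists were chosen with earlier results of these data known. Signals were given for every gene past 1.5-fold, genes whose probe sets disagreed in sign by over 0.5, the ULK complex, the ATG8 family, Becn1, Pik3c3, Atg5, Atg7, Sqstm1 and Foxo3, genes too dim for the filter and, of related lists, those past 2-fold; some others were added after seeing values. The calculations were run on simulated data with planted changes larger than that of any member gene. That run checks the steps and does not show whether differences of the size reported here can be found. No replicate exists, so no test was made, and 15 alternatives of scaling, filter and probe set choice were tried. The number of arrays limits the precision.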

Additional observations from a re-analysis of the deposited data

How the results depend on the processing

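With 1 array per condition no replicate could be left out, and no paired analysis was possible because each condition has 1 array. Of the 15 alternatives, the one without _x_at and _s_at probe sets is counted below for probe sets only. At the level of genes it kept 37 members, of which 67.6% were above 0, against 50.4% of all genes. Under the other 14, the count of member genes past 2-fold lower was 0. Between 22 and 29 genes were above 0. The 22 came with the mean of passing probe sets (57.9%, against 50.2% of all genes). The 29 came with scaling on the hybridization controls (76.3%, against 64.6% of all genes). The median log2 ratio of the members was above 0 under each of the 14. It was 0.11 with the mean of a gene's passing probe sets, 0.30 with a signal of at least 100 in 1 array (33 genes), and 0.35 with scaling on the hybridization controls. That last scaling was chosen after seeing the data, as were the counts past 1.5-fold. It moves every gene upward by the same constant, to a median of 0.17 over all genes. The members therefore stood 0.18 above all genes under both scalings by construction. The 1 gene past 2-fold higher became 0 with 16 added to both signals or with the mean of passing probe sets, 2 with no filter and 3 with the hybridization controls. The 2 probe sets past 2-fold higher became 0 with 16 added, 7 with no filter, 1 with the array median required in both arrays or a signal of 100, and 4 with the hybridization controls. The 1 probe set past 2-fold lower became 5 with no filter and 0 with no scaling, with 16 added, with a signal of 100 and with the hybridization controls. Shares of all genes and probe sets past 2-fold were not computed under the alternatives, so these counts have none beside them. Past 1.5-fold, the 7 higher genes became 6 with 16 added (beside 8.60% of all genes) and 8 with the mean of passing probe sets (beside 11.6%). With no filter they became 8 of 39, about the same share as the 20.5% of all genes. With the hybridization controls they became 11, where 18.8% of all genes were past 1.5-fold higher and 7.63% lower. The 1 lower gene became 0 with those controls, with quantile normalization (11.3% of all genes) or with loess (11.3%). It became 2 with the brightest passing probe set (12.0% of all genes). The log2 ratio of Ulk1 ran from 0.80 to 1.28 and that of Sqstm1 from -0.68 to -0.46. Of 23 named genes, recomputed under the alternatives of scaling, added constant and probe set choice, 6 changed sign under at least 1 (Atg2b, Gabarap, Gabarapl2, Nbr1, Ulk2 and Wipi1). Where the alternative itself does not show the cause, the cause was not tested.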
